A study of Mus musculus with 15 samples.

Results

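UCSF033_000781, UCSF033_000782 and UCSF033_000784 are 3 of the 2500 microRNA probes on a custom Agilent array, each printed on 6 or 7 spots. They were selected on their measured values in these arrays: a signal in naive CD4 T cells that was much lower at 42 h and 65 h of activation and lower again when rested cells were stimulated a second time. Those differences are therefore given as a description with no test. The sources used here do not pair the IDs with microRNA names, so the probes are called by ID and no sequence is printed. All 3 were among the 911 probes that were above background on both arrays of at least 1 group and entered the analysis.

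MicroRNAs are short RNAs that guide Argonaute proteins to messenger RNAs and repress them. In T cells, signalling through the antigen receptor is known to change the microRNA content of the cell, with many microRNAs of resting cells becoming less abundant and a smaller set induced. Some of those changes shape cytokine production, proliferation and the step from a resting to an effector cell.

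Total RNA came from CD4 T cells of C57/B6 mice aged 6-8 weeks, taken from spleen and lymph nodes with magnetic beads coated for CD4. All 15 one-colour (Cy3) arrays share this source. Naive cells, with no treatment, gave 2 arrays, and 2 arrays were made at each of 6, 12, 24, 42 and 65 h on plate-bound antibodies to CD3, the signalling part of the T cell receptor, and to CD28, a costimulatory receptor. Cells rested in IL-2, a T cell growth factor, until day 7 after the 65 h stimulation gave 1 array, and such cells restimulated for 18 h gave 2. Whether paired arrays represent different mice or cultures is not stated in the labels, and p-values here cover array-to-array spread, which may be technical. Each of the 2 slides held 1 array of every group except day 7, which was on slide 1 only. Without names, the cell type could not be checked against marker microRNAs. In bulk RNA of this kind, fewer cells with a microRNA and less of it per cell cannot be told apart.

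The first 42 h array, on slide 2, stood apart. It had 2146 probes above background, against 640 to 950 on the other 14 arrays, a median spot brightness of 466 against 21 to 23, and the scanner software marked 49.9% of its spots non-uniform. It enters every SE through the shared estimate of the spread, and the values and SEs without it are given beside the main differences and tests. No spot of the 3 probes was saturated on any array. UCSF033_000781 and UCSF033_000782 were above background on all 15 arrays and UCSF033_000784 on 12.

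Levels are log2 of the background-subtracted signal relative to the 75th percentile of the array, taken over the 558 probes detected on all arrays, so 0 is the level of that percentile. Values under the floor of -7.36 were set to it and have no order among themselves. Levels of different probes are not set against each other, since probes bind and label with different efficiency.

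UCSF033_000781 stood at 5.31 on slide 1 and 4.85 on slide 2 in naive cells, at 5.27 and 4.63 at 6 h, and at 5.04 and 4.55 at 12 h. It was 4.51 and 3.71 at 24 h, 2.76 and 1.21 at 42 h (the second value from the first 42 h array), and 0.86 and 0.04 at 65 h. The day 7 array gave 0.46, and the restimulated arrays gave -1.48 and -3.24. The arrays of naive cells, 6 h and 12 h overlapped from each group to the next. From 12 h on, the arrays of each group lay below those of the group before, except that day 7 lay between the 65 h arrays. Both restimulated arrays were below all 13 others.

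**Figure D1:**
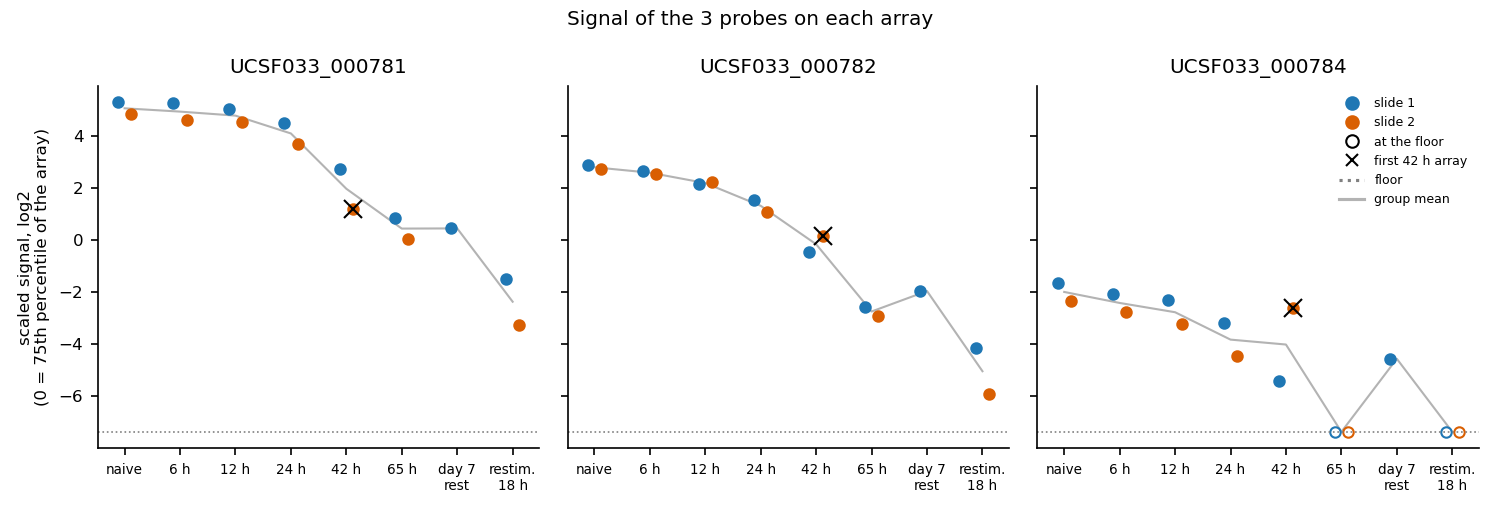
Scaled signal (log2, y axis) of the 3 probes on each of the 15 arrays by group (x axis), with slide 1 in blue, slide 2 in orange, the group mean as a grey line and the floor dotted. UCSF033_000781 and UCSF033_000782 have their lowest values on the restimulated arrays, while UCSF033_000784 lies at the floor at 65 h and after restimulation and at -4.55 on day 7.

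UCSF033_000782 had the same order of groups and no overlap between neighbours in that order. It stood at 2.89 and 2.73 in naive cells, 2.66 and 2.55 at 6 h, 2.16 and 2.25 at 12 h, and 1.56 and 1.10 at 24 h. At 42 h it was -0.47 on slide 1 and 0.17 on the first 42 h array, and at 65 h it was -2.57 and -2.90. The day 7 array, at -1.95, lay above both 65 h arrays, and the restimulated arrays, at -4.15 and -5.92, lay below every other array. The gap between the nearest arrays of naive cells and 6 h was small, 0.07.

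UCSF033_000784 was the only one of the 3 to meet the floor. It stood at -1.63 and -2.33 in naive cells, -2.04 and -2.77 at 6 h, -2.31 and -3.22 at 12 h, and -3.19 and -4.45 at 24 h. At 42 h the slide 1 array gave -5.42. The first 42 h array gave -2.60, from a signal of 387.3 that lay below that array's own median probe signal of 394.9. It was not above background on either 65 h array, returned to -4.55 on the day 7 array, and was at the floor on both restimulated arrays, 1 of which counted as above background. In time order, the arrays of each group up to 24 h overlapped those of the group before. The 24 h and 42 h arrays overlapped only through the first 42 h array, since the other lay below both 24 h arrays. The 42 h arrays and the day 7 array all lay above the floor at which the 65 h and restimulated arrays were set.

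By 65 h of the first stimulation, the mean of UCSF033_000781 was 4.63 log2 lower than in naive cells (SE 0.71), which left 4.05% of the naive level. UCSF033_000782 was 5.55 lower (SE 0.55), which left 2.14%. UCSF033_000784 was at least 33.3-fold lower under the scaling used, against the lowest signal of any detected probe on each 65 h array. Its floored mean was 5.38 lower, and in the authors' deposited value table it was 4.13 lower. Over all alternatives tried the difference ran from -6.45 to -2.08 log2, so the bound does not hold for every processing. Without the first 42 h array the 3 differences were -4.53, -5.45 and -5.51 (SE 0.59, 0.49 and 0.49). The last SE is lowered by the floor, at which the 65 h and restimulated pairs of UCSF033_000784 show no spread. Across all 911 probes the median difference was 0.49, with 34.9% of probes below 0. UCSF033_000782 had the lowest difference of the 911, UCSF033_000784 the next and UCSF033_000781 the 6th from the bottom, as the selection looked for.

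Most of that difference arose after 12 h. At 6 h the 3 probes differed from naive cells by -0.13, -0.21 and -0.42 (SE 0.71, 0.55 and 0.83, in ID order), and at 12 h by -0.28, -0.61 and -0.78. At 24 h the differences were -0.97, -1.48 and -1.83. At 42 h they were -3.09, -2.96 and -2.02 with both arrays, and -2.36, -3.32 and -3.47 without the first 42 h array. These differences share the 2 naive arrays. The 6 h means differed by less than the pooled SD between paired arrays, 0.66, 0.54 and 0.53 for the 3 probes. It was taken over 6 pairs, without the 42 h pair. For UCSF033_000784 the 65 h and restimulated pairs lay at the floor and added no spread, which lowered its value. Those SDs include an offset between slides in the scaled signal. UCSF033_000781 was lower on slide 2 in all 7 groups with a pair. UCSF033_000784 was lower there by 0.70 to 1.26 from naive cells to 24 h. The offset depended on the scaling. Unscaled, the slide 2 minus slide 1 gap of UCSF033_000781 was -0.37 at 24 h and above 0 in every other group with a pair. That of UCSF033_000784 was 0.45 at 12 h and -0.83 at 24 h. Within slides the 6 h differences were below 0 on both, at -0.04 and -0.22, -0.24 and -0.18, and -0.41 and -0.44.

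With the scaling used, the probes did not move to the same extent. At 24 h UCSF033_000782 was further below its naive level than UCSF033_000781, by 0.53 on slide 1 and 0.50 on slide 2. UCSF033_000784 was further below it than UCSF033_000781 by 0.75 and 0.98. At 65 h UCSF033_000782 was still further down than UCSF033_000781, by 1.02 and 0.82, whereas after restimulation the gap was 0.25 and 0.56. The order of the probes depended on the processing. With quantile normalization the 24 h differences from naive cells were -1.55, -1.55 and -1.30. For restimulated minus naive, UCSF033_000782 was less far down than UCSF033_000781 with quantile normalization (-6.78 against -7.68), in the authors' deposited value table (-7.62 against -8.18) and with normexp background correction (-6.38 against -7.14). UCSF033_000781 was so bright that its signal came from the low-gain scan on 7 arrays (naive, 6 h, 12 h and 1 of 24 h), and that scan's part in these gaps was not tested.

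**Figure D2:**
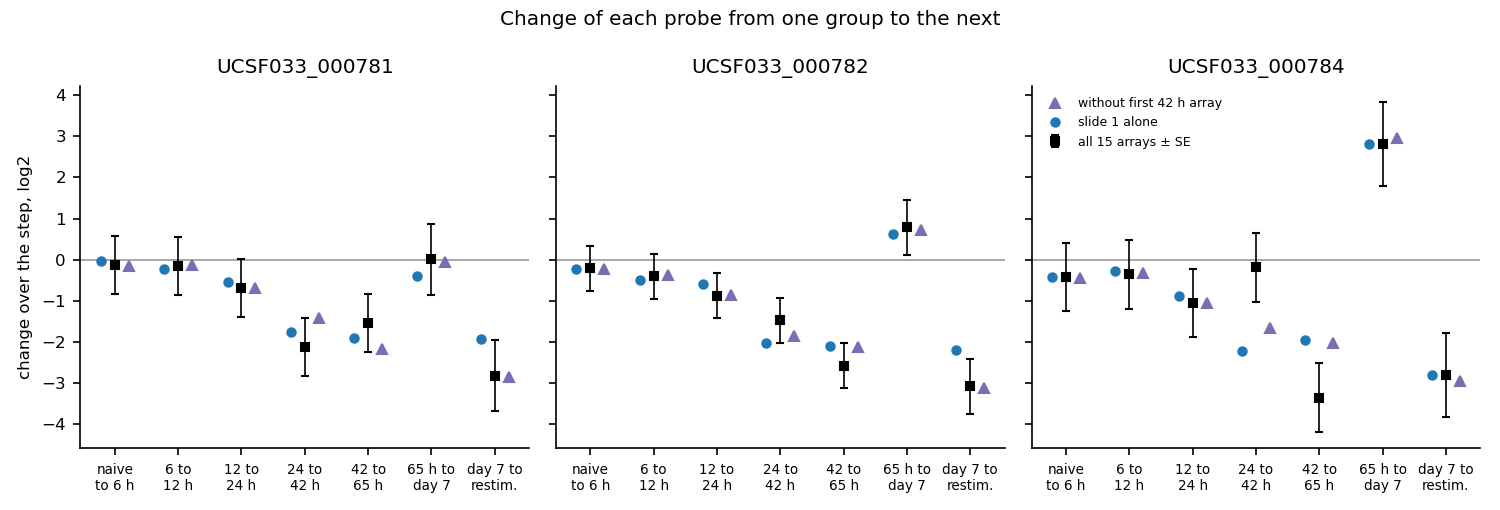
Change in scaled signal (log2, y axis) over each step from one group to the next (x axis): black squares use all 15 arrays with the SE of the limma fit, purple triangles leave out the first 42 h array, and blue circles use slide 1 alone. The last step, from day 7 to restimulation, is below 0 for all 3 probes, and the step from 65 h to day 7 is 0.01, 0.79 and 2.81 in ID order.

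Over the rest in IL-2 the values of the 3 probes moved differently, judged from 1 day 7 array and with no test. The gap of UCSF033_000781 to UCSF033_000782 in this change, -0.78, is of the size of their SEs. From 65 h to day 7, UCSF033_000781 differed by 0.01 (SE 0.87), less than the spread between arrays, and by -0.40 against the 65 h array of the same slide. UCSF033_000782 was 0.79 higher (SE 0.67), and UCSF033_000784 was at least 5.60-fold higher under the scaling and floor used, at an unscaled signal of 36.9 against 3.05 and 4.66 on the 65 h arrays. Its size depended on the processing: it was 1.43 log2 higher in the authors' deposited value table, 1.49 higher (log2) with quantile normalization and 0.66 higher (log2) with normexp, the lowest value over the alternatives. On day 7 the probes stood at 4.07%, 3.69% and 16.8% of their naive levels. The median of all tested probes over this step was -0.03. Day 7 is 1 array, so its own spread is unknown.

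Restimulation for 18 h took all 3 below day 7. UCSF033_000781 was 2.82 lower (SE 0.87) and UCSF033_000782 3.08 lower (SE 0.67), which left 14.2% and 11.8% of the day 7 level. UCSF033_000784 was 2.81 lower with both restimulated arrays at the floor, so this value depends on the floor; its unscaled signal was 2.86 on slide 1 and 7.87 on slide 2, against 36.9 on day 7. Without the first 42 h array the differences were -2.87, -3.13 and -2.95 (SE 0.72, 0.61 and 0.60). The SE of UCSF033_000784 is lowered by the floor, since its 65 h and restimulated pairs lie there and add no spread. On slide 1 alone, the slide that holds the day 7 array, the differences were -1.93, -2.20 and -2.81. The median over all 911 probes was 0.08, and 40.1% of probes were below 0. The 3 probes had the 3 lowest differences of the 911 with all arrays, which is how they were chosen.

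The first and second responses can be set side by side, though their times are not the same. On slide 1, UCSF033_000781 was lower by 0.26 at 12 h and 0.80 at 24 h of the first stimulation, and by 1.93 after 18 h of the second. UCSF033_000782 was lower by 0.74, 1.33 and 2.20 at the same points. UCSF033_000784 was lower by 0.68, 1.55 and 2.81, the last to the floor. For this probe the order depended on the processing. Its 24 h minus naive and restimulated minus day 7 differences of group means were -1.78 and -1.41 in the authors' deposited value table. They were -2.90 and -1.90 with no scaling, -1.30 and -1.40 with quantile normalization, and -2.01 and -3.195 with the percentile over all probes. The first response is measured from naive cells and the second from the day 7 array, so the 2 share no array, and since restimulation chose the probes their difference was not tested.

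Against naive cells, the restimulated cells held 0.577% of the level of UCSF033_000781, a difference of -7.44 (SE 0.71), and 0.436% of that of UCSF033_000782, a difference of -7.84 (SE 0.55). The median of all 911 probes was 0.39. Both were also below 65 h, by 2.81 and 2.30 (SE 0.71 and 0.55). Over all alternatives tried these differences ran from -3.805 to -1.93 and from -3.29 to -1.30. That of UCSF033_000782 was -1.57 on slide 1 and -3.02 on slide 2. It was -1.58 in the authors' deposited value table and -1.35 with quantile normalization. UCSF033_000784 was at the floor at 65 h and after restimulation and has no order between them. These comparisons share the restimulated arrays with the one before.

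The restimulated arrays of the pair differed from each other by 1.77 for both UCSF033_000781 and UCSF033_000782 after scaling, the largest gap between paired arrays for either probe. Before scaling they nearly coincided: UCSF033_000781 gave signals of 188.0 on slide 1 and 201.5 on slide 2, from 74843 and 80380 in naive cells. UCSF033_000782 gave 29.5 and 31.5, from 14014 and 18514. Unscaled, UCSF033_000781 thus kept 0.251% of its naive signal on both slides. The slide 2 restimulated array had 950 probes above background and the slide 1 array 640. What part this had in the gap was not tested.

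**Figure D3:**
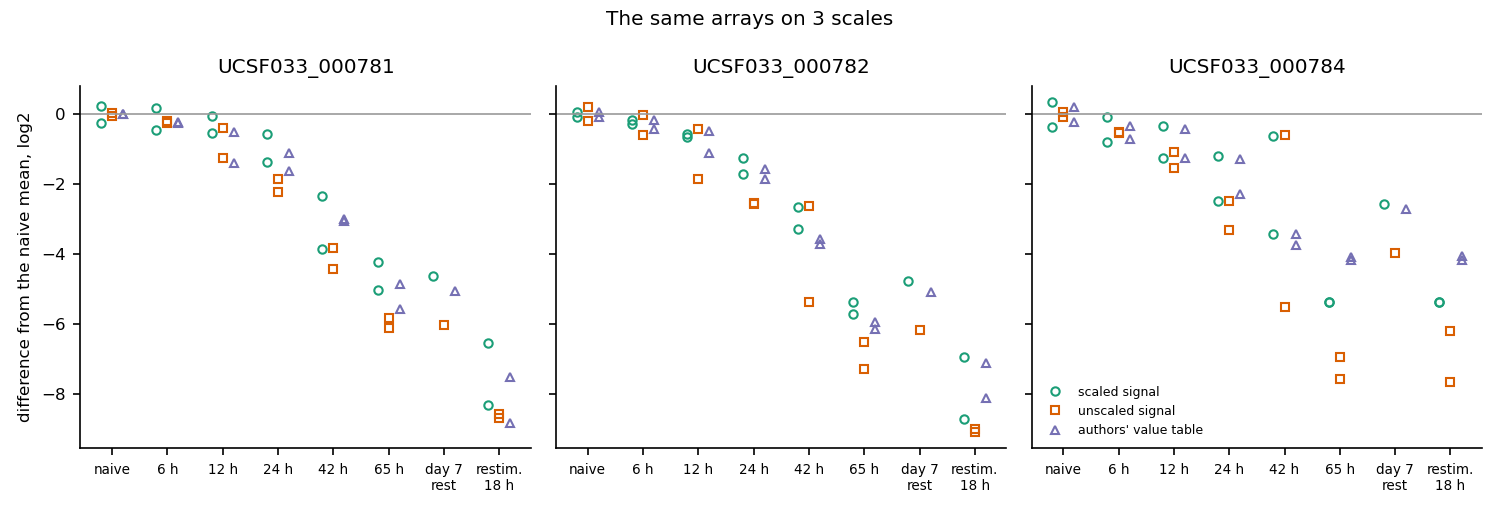
Difference of each array from the naive mean (log2, y axis) by group (x axis) for the 3 probes on 3 scales: scaled signal (circles), signal with no scaling or floor (squares) and the authors' deposited value table (triangles). On all 3 scales the restimulated arrays of UCSF033_000781 and UCSF033_000782 lie lowest, and their pair of squares nearly coincide.

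In the authors' deposited value table, which holds log2 values, the 3 probes gave 7.01 and 8.31, 5.28 and 6.31, and 4.65 and 4.75 on the restimulated arrays, the slide 2 array first. The day 7 column gave 10.8, 8.33 and 6.11. Restimulated cells were 3.12, 2.54 and 1.41 lower than day 7 there. The column medians lay between 4.38 and 4.41, and the exact scale and centring of the table are unknown. For 42 h the table gave 12.84 and 12.78 for UCSF033_000781, 9.85 and 9.72 for UCSF033_000782, and 5.06 and 5.40 for UCSF033_000784. Its column for the first 42 h array did not follow that array's scanner file (Spearman correlation 0.459, against at least 0.999 for the other 14).

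Scaling shifted all probes together. The median of the tested probes for 65 h minus naive moved from 0.49 to -0.64 with no scaling, and that for restimulated minus naive from 0.39 to -0.42. Relative to the median of all probes, UCSF033_000781 was 5.11 lower at 65 h with the scaling used and 5.34 lower without it, and UCSF033_000782 was 6.03 and 6.26 lower. For restimulated minus day 7 the same values were 2.90 and 2.91 for UCSF033_000781, and 3.16 and 3.17 for UCSF033_000782. A constant shift of an array moves the median and the unfloored probes alike, so these pairs had to lie close. UCSF033_000784, which meets the floor, moved from 5.87 to 5.24 at 65 h and from 2.89 to 2.20 for restimulated minus day 7. With quantile normalization the 3 probes were 2.81, 2.20 and 1.40 below the median for restimulated minus day 7.

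**Figure D4:**
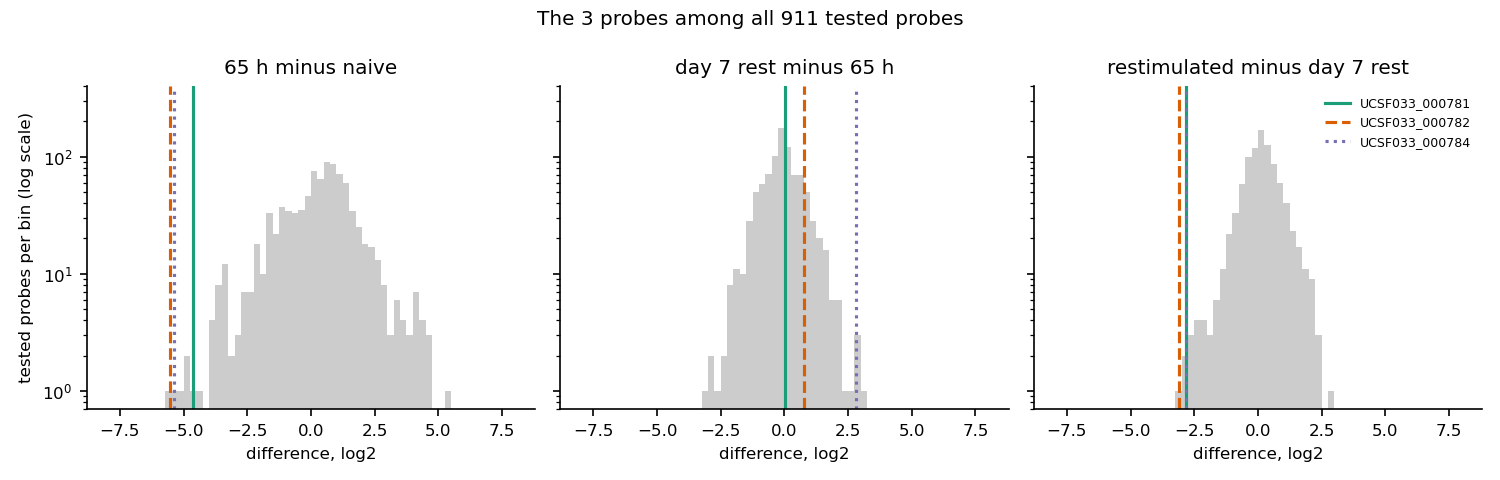
Number of tested probes (y axis, log scale) by difference in scaled signal (log2, x axis, bins of equal width) for 65 h minus naive, day 7 minus 65 h and restimulated minus day 7, with the 3 probes as vertical lines. The lines lie at the low end in the outer panels and apart from each other in the middle one, at 0.01, 0.79 and 2.81.

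The steps from 6 h and from 12 h to 24 h were tested with limma over all 911 probes. Values of these arrays were already known when the probes were chosen. The probes were chosen for a lower signal later in activation than in naive cells, and these steps lie within that time span. The limma p-values given for these steps are therefore not an independent test of the fall. How far the choice of the probes affected them was not tested. From 6 h to 24 h the 3 probes differed by -0.84, -1.27 and -1.41 (SE 0.71, 0.55 and 0.83), lower on both slides, and none passed (limma adjusted p = 0.988, 0.610 and 0.905). No probe of the 911 was called in either direction, so the background of lower calls was 0%, with 71 probes under an unadjusted limma p of 0.05. From 12 h to 24 h the differences were -0.69, -0.87 and -1.05, again lower on both slides (limma adjusted p = 1 for each), with 0 probes called and 13 under the unadjusted threshold. These fits share 1 estimate of the spread over all groups, which includes the 42 h pair, and their median SE over the probes was 0.70 with the first 42 h array and 0.44 without it.

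Without the first 42 h array, the 6 h to 24 h differences had limma adjusted p of 0.581, 0.245 and 0.178, still with 0 of 882 probes called and 156 under the unadjusted threshold. With slide as a block as well, UCSF033_000784 passed at a limma adjusted p of 0.0346, and UCSF033_000781 and UCSF033_000782 did not, at 0.140 and 0.0945. That fit called 82 of the 882 probes lower, 9.3%, and 87 higher, so 1 of the 3 probes stands beside that background. From 12 h to 24 h that fit called 0 probes, with 139 under the unadjusted threshold, and gave the 3 probes limma adjusted p of 0.353, 0.372 and 0.190. UCSF033_000784 had its 65 h and restimulated pairs at the floor, so its spread in these fits is only partly measured.

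In the authors' deposited value table, UCSF033_000782 passed for 24 h against 6 h, at -1.43 with a limma adjusted p of 0.0455. UCSF033_000781, at -1.15, and UCSF033_000784, at -1.27, did not (limma adjusted p = 0.176 and 0.0744). Of the 719 probes tested there, 8 were called lower, 1.11%, and 20 higher. Which of the 3 probes passed thus depended on the values and the fit used, while all 3 differences were below 0 in each. These fits use the same 6 h and 24 h arrays, and the probes were chosen for a lower signal later in activation. The shared sign and the passes are therefore no independent support for the fall.

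Over the 15 arrays, the Pearson correlation of scaled signal was 0.980 between UCSF033_000781 and UCSF033_000782, 0.921 between UCSF033_000782 and UCSF033_000784, and 0.852 between UCSF033_000781 and UCSF033_000784. Over 14 arrays without the first 42 h array the values were 0.992, 0.937 and 0.908. The arrays share the time course, so these describe the likeness of the profiles and were not tested.

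Among the 13 other probes with an ID number within 6 of a member, 8 were tested. UCSF033_000783, which lies between the members in ID order, followed UCSF033_000784 most closely (r = 0.979 over 15 arrays). It stood at -1.82 and -2.48 in naive cells, -5.86 and -6.19 at 65 h, and -4.40 on day 7. After restimulation it was -5.83 on slide 1, where it was not above background, and -5.11 on slide 2, so it did not go below its 65 h arrays. Its differences were -3.88 from naive cells to 65 h (SE 0.75), 1.63 from 65 h to day 7 (SE 0.92) and -1.08 from day 7 to restimulation (SE 0.92).

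The profiles of the other 7 tested neighbours were less like those of the 3 probes, with mean r over 15 arrays from -0.68 for UCSF033_000776 to 0.47 for UCSF033_000787. These values depended on the processing. In the authors' deposited value table mean r ran from -0.66 for UCSF033_000788 to 0.80 for UCSF033_000787. UCSF033_000786 had 0.63 there against 0.07 with the scaling used. UCSF033_000780 was higher than in naive cells at 65 h, by 1.04 (SE 0.56), though it was 0.31 lower there with no scaling. After restimulation it was higher by 1.93, from 1.23 on slide 1 and 2.63 on slide 2. The unscaled signal of these restimulated arrays was 64.8% and 423% of the naive signal on the same slide. UCSF033_000787 was 0.92 lower at 65 h (SE 0.66). Its mean after restimulation was 0.49 higher than on day 7, but the restimulated arrays lay on either side of the day 7 array. They stood at -3.26 on slide 1 and -4.90 on slide 2, against -4.57 on day 7. UCSF033_000776 differed by 0.71 at 65 h, by -0.64 with no scaling and by -0.08 in the authors' deposited value table. UCSF033_000779, UCSF033_000786, UCSF033_000788 and UCSF033_000789 were above background on 15, 11, 4 and 3 arrays. UCSF033_000775, UCSF033_000777, UCSF033_000778 and UCSF033_000785 were above background on 1 array, the first 42 h array, and UCSF033_000790 on none. The ID order is that of the array's design and carries no stated relation between probes.

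**Figure D5:**
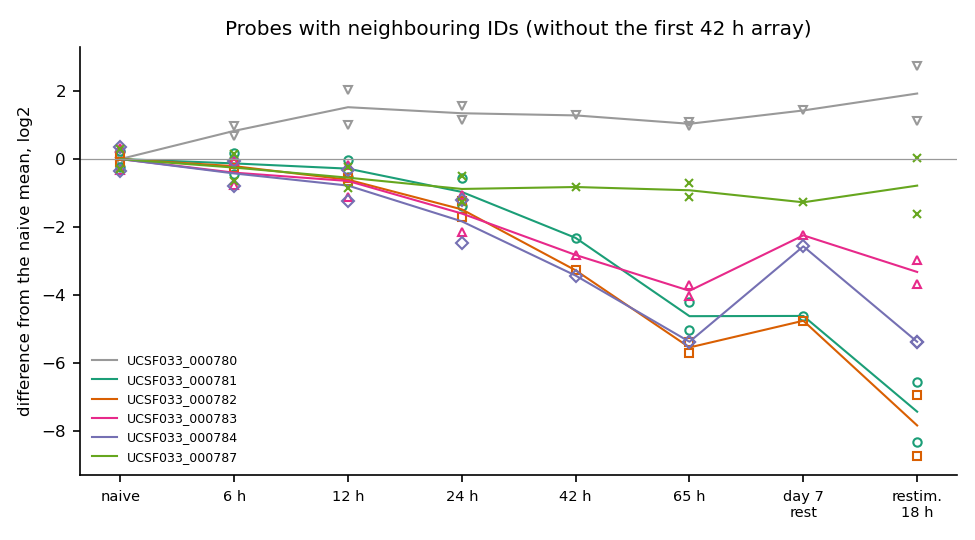
Difference from the naive mean in scaled signal (log2, y axis) by group (x axis) for the 3 probes and 3 others with neighbouring IDs, without the first 42 h array, with each array as a symbol and the group mean as a line. UCSF033_000783 lies close to UCSF033_000784 to 24 h, above it at 65 h (-3.88 against -5.38, the latter at the floor) and at -3.32 after restimulation, UCSF033_000787 stays within 2 log2 of its naive level and UCSF033_000780 lies above 0 in every group after naive cells.

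The 5 other tested probes with the most similar profiles over 15 arrays, by mean Pearson r with the 3 probes among 855 compared, were UCSF033_000800 (0.944), UCSF033_000314 (0.938), UCSF033_001297 (0.933), UCSF033_000316 (0.930) and UCSF033_000288 (0.929, a probe with 1 spot). Over 14 arrays without the first 42 h array, UCSF033_000733 (0.944) took the place of UCSF033_001297. UCSF033_000800 was 4.26 lower at 65 h than in naive cells, 1.10 higher on day 7 than at 65 h and 1.14 lower after restimulation than on day 7. UCSF033_001297 was lower at each step, by 4.78, 1.14 and 1.69, the last with its slide 1 restimulated array at the floor and not above background, so that this size depends on the floor. UCSF033_000314, UCSF033_000316 and UCSF033_000288 were lower at 65 h by 2.80, 2.17 and 2.08 and lower after restimulation than on day 7 by 1.02, 0.50 and 0.63. On day 7 they were 1.07, 0.58 and 0.75 higher than at 65 h. Their restimulated minus naive differences were -2.745, -2.10 and -1.95, and that of UCSF033_000800 was -4.30. Restimulation thus took UCSF033_000800, UCSF033_000314, UCSF033_000316 and UCSF033_000288 back to near their 65 h level and not clearly below it. UCSF033_001297 did go below its 65 h level, with a restimulated minus naive difference of -7.61, a size that depends on the floor. On slide 2, where it was above background, it stood at -6.80 after restimulation against -3.735 at 65 h.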

How the data were processed

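The deposited scanner files give each spot's intensity after background subtraction. Their headers name Agilent Feature Extraction 10.1.1.1, while the submitters' processing notes name 10.6. The authors' deposited table covers 2191 of the 2500 probes as log2 values, made by steps not given in the sources used here. For this report, spots flagged as outliers were dropped and the remaining processed signals of a probe averaged. Each array was scaled by its own 75th percentile, computed from 558 probes that all 15 arrays detected. Scaled values under 0.607% (the 5th percentile among detected ones) were raised to that floor before log2 was taken. Detection required more than 50% of a probe's spots well above background, and a probe was tested if both arrays of any group detected it. Group means, SEs and the 24 h tests are from limma 3.58.1 under R 4.3.3: a model of group means, moderated variances, 7 residual degrees of freedom, and p-values adjusted over all tested probes by Benjamini-Hochberg with a threshold of 0.05. Recovery of known differences by the fit was checked on simulated data with independent noise and no floor or slide effect. That check set no condition on the calls or adjusted p-values. A fold is given as a bound where a probe was not above background on any array of a group. It sets the bright group's mean against, on each array, the higher of the lowest detected signal and the probe's own. Such a bound holds only under the scaling used, and some alternatives gave smaller folds. The number of arrays limits the precision.

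The probes and the lists were chosen with earlier results of these data known. Named probes were the 3 members, the IDs within 6 of them and the 5 most similar profiles. Replicate numbers only name arrays: for same-numbered arrays the correlation of deviations from group means ran from -0.85 to 0.79 over 21 pairs of groups (8 over 0.1). For arrays of the same slide it ran from -0.10 to 0.85, with a median of 0.22 and 16 of 21 over 0.1, and slide was tried as a block. Lists of marker and pathway microRNAs were not analysed here, since 0 of the 3 IDs matched a name.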

Additional observations from a re-analysis of the deposited data

How the results depend on the processing

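All values here are log2 differences unless said, in the order UCSF033_000781, UCSF033_000782, UCSF033_000784. All 3 differences that chose the probes stayed below 0 in every alternative tried. For restimulated minus naive, no scaling gave -8.64 and -9.04 for the first 2 probes, the authors' value table gave -8.18 for UCSF033_000781 and -4.11 for UCSF033_000784, the percentile over all probes gave -8.42 and -6.25 for the last 2, quantile normalization -6.78 and -3.34, and normexp background correction -6.38 and -2.21. For 65 h minus naive, no scaling gave -5.98 and -6.90 for the first 2, the percentile over all probes -6.15 and -6.45 for the last 2, and UCSF033_000784 was -3.43 with quantile normalization, -2.08 with normexp and -4.13 in the value table. For restimulated minus day 7, quantile normalization gave -2.20 and -1.40, normexp -1.89 and -0.80 and the value table -2.54 and -1.41 for the last 2, and no scaling gave -1.90 for UCSF033_000784. For UCSF033_000784 a floor raised 2-fold gave -4.38 at 65 h and after restimulation against naive and -1.81 against day 7, and a floor 2-fold lower gave -5.91 at 65 h, since its values there are the floor. The cause of the other shifts was not tested.

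Leaving out 1 array gave restimulated minus naive from -8.25 to -6.55, -8.66 to -6.96 and -5.62 to -5.01, and restimulated minus day 7 from -3.63 to -1.93, -3.90 to -2.20 and -2.95 to -2.75, with the ends for the first 2 probes reached without one or the other restimulated array. It gave 65 h minus naive from -5.02 to -4.22, -5.69 to -5.38 and -5.62 to -5.01. Among other differences, 65 h minus 42 h turned to 0.68 for UCSF033_000781 with the percentile over all probes; the cause was not tested. The value table called 28 probes for 24 h against 6 h, and 169 were called with slide as a block once the first 42 h array was left out. For 24 h against 12 h, 1 probe was called with only the arrays compared in the fit. The value table shared 3 of the 5 most similar probes. With the replicate number as a block, restimulated minus day 7 was -2.94 for UCSF033_000781 and 0 probes were called in either 24 h test.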
